A study of Arabidopsis thaliana with 12 samples.

Results

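Arabidopsis tissue culture can turn a leaf into new shoots by way of callus, a mass of dividing, pluripotent cells, and the comparison described here is between the end of that route and its middle: WT de novo shoots against WT calli. True leaves of L*er* wild type (WT) seedlings were placed on callus-inducing medium (CIM, with the auxin 2,4-D and the cytokinin kinetin) in continuous dark for 7 days, which gave the calli called DAC7. Calli were then moved to shoot-inducing medium (SIM, with the auxin IAA and the cytokinin 2iP) under long days, and the tissue taken after 14 days on SIM is called DAS14. The members are all libraries of these groups, chosen by their labels: 3 DAS14 and 3 DAC7 biological replicates of WT, which are 6 of the 12 mRNA libraries of the series. The other 6 come from the same stages of *dme-2*, a mutant of the DNA demethylase gene *DEMETER*, in L*er*. They are used below only to see whether a change recurs. Light, medium, hormones, time in culture and tissue all differ between DAS14 and DAC7, so their parts in any difference cannot be told apart. RNA was taken from whole tissue, so fewer cells of a type and less RNA per cell cannot be told apart either.

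As background, callus on CIM forms along the lateral root programme: auxin induces LBD transcription factors, and PLETHORA and WOX factors of the root stem cell niche follow. On SIM, cytokinin signalling restricts these cells to shoot fates, *WUS* and *STM* mark new meristems, and YABBY, KANADI and class III HD-ZIP factors pattern the leaves that the meristems form. In light, the plastids of these leaves become chloroplasts.

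Abundance is given as TPM (relative transcript abundance in a library, scaled for length), in the order of replicates 1, 2 and 3. Differences were tested on the deposited read counts with edgeR's quasi-likelihood test and Benjamini-Hochberg adjustment, and a fold change is the log2 ratio of WT shoots over WT calli ± its standard error. A gene was called (it "rose" or "fell") with an adjusted p under 0.05 and a log2 fold change beyond 1 or −1. Total counts were 15381207 to 17791963 in WT shoots and 12981250 to 20128757 in WT calli. Replicates were closer to each other in shoots, where the median SD of log2 CPM (counts scaled to library size) was 0.0854, than in calli, where it was 0.215 (19616 genes). The lowest Spearman correlation was 0.996 between shoot libraries and 0.981 between callus libraries, and the highest between a shoot and a callus library was 0.617.

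Of 19616 genes tested, 6291 rose in WT shoots (32.1%) and 4834 fell (24.6%). The 19616 log2 fold changes had a median of 0.14. This balance depends on the scale. The 10 most abundant loci held 6.94% to 7.31% of all TPM in shoots and 12.4% to 13.7% in calli, and the TMM factors used throughout were 1.2 to 1.22 in shoots and 0.768 to 0.861 in calli. With library size alone as the scale, the median moved up by 0.54 to 0.68, and 8408 genes rose (42.9%) while 3446 fell. Rises thus made up 56.5% of the calls with TMM and 70.9% without it. Genes with a log2 fold change just below −1 lose their call on that scale, and those that are named below are marked. The 37 gene lists described below are read against these shares and against the median of 0.14.

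**Figure D1:**
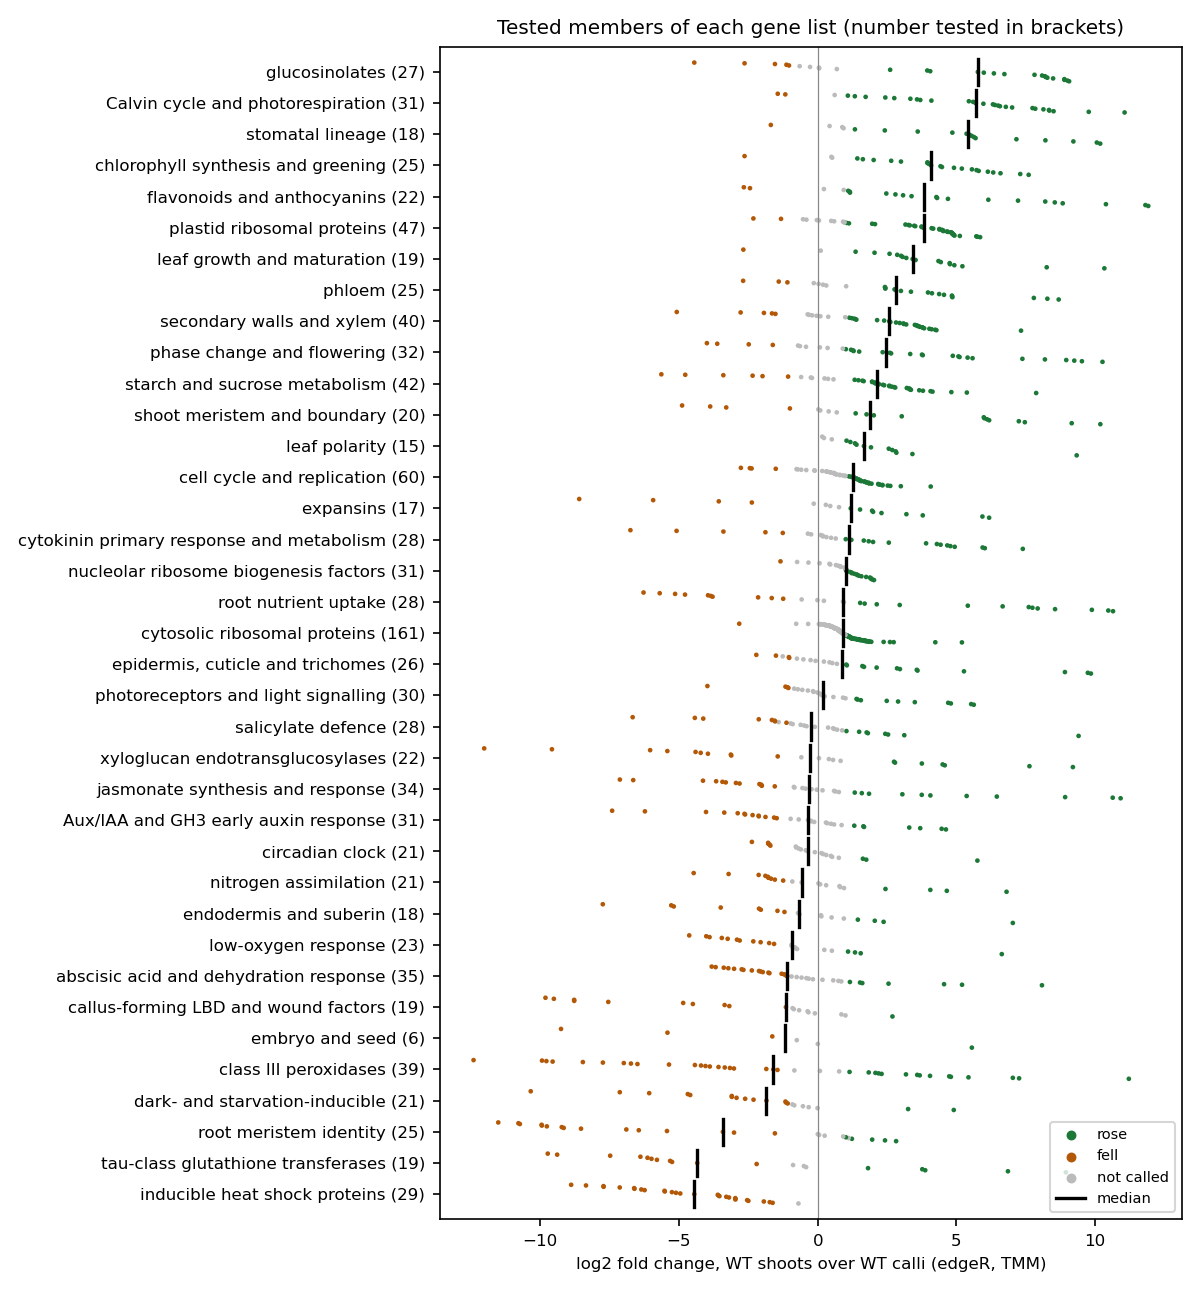
Each point is 1 tested member of a gene list, placed by its log2 fold change in WT shoots over WT calli (horizontal axis, edgeR with TMM, 3 libraries per group) and coloured by its call, and the black bar is the list's median. Medians run from 5.77 for glucosinolate genes and 5.70 for the Calvin cycle and photorespiration down to −4.45 for inducible heat shock proteins. Points beyond about 8 on either side include genes with no counts in a group, whose fitted values are not exact.

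The 10 most abundant transcripts of WT calli were all lower in WT shoots. In WT calli these encoded mainly secreted defence and wall proteins. *UPI*, a serine protease inhibitor, had 7.14, 10.6 and 22.1 TPM in WT shoots, against 44171, 40710.1 and 48289 TPM in WT calli. *OSM34*, an osmotin of the pathogenesis-related group, had 27, 26.1 and 26.2 TPM in WT shoots, against 23853, 23566 and 26302 TPM in WT calli. *EXT4*, an extensin of the cell wall, averaged 584 ± 59 TPM in WT shoots and 12882 ± 1306 TPM in WT calli (SD, n = 3 each). Also among the 10 highest in calli were *PR4*, a hevein-like chitin-binding protein (−4.27 ± 0.14 log2), the trypsin inhibitors *KTI1* (−9.29 ± 0.20) and *TI1* (−5.88 ± 0.16), the thionin-like AT1G25275 (−4.46 ± 0.13), the secreted CAP protein AT2G19970 (−10.64 ± 0.19), the berberine-bridge-like oxidase AT5G44380 (−8.02 ± 0.20) and the lipid-transfer-like AT4G15160 (−8.27 ± 0.16). All 10 of these genes fell in WT shoots, with libraries of the groups that did not overlap. Among the highest in shoots, besides photosystem genes, were *RBCS1A* (small subunit of Rubisco), *CAT3*, a catalase, with 7985, 8439.9 and 8323 TPM in WT shoots, against 103, 124 and 119 TPM in WT calli, the peroxidase *PRXR1* (3.68 ± 0.14 log2), and the metallothionein *MT2B* (2.50 ± 0.18). A further metallothionein locus, *MT1C*, is not described, since its counts and its TPM gave opposite directions.

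Many of the largest single changes were between presence and absence. *GER3*, a germin-like apoplastic protein, had 930.4, 914 and 971 TPM in WT shoots, against 0, 0 and 0 TPM in WT calli, which is at least 1898-fold higher on the CPM scale, taking 3 counts per library as the floor (adjusted p = 1.1e-08, edgeR's quasi-likelihood test). Of the 10 largest rises among genes with 1 Col homolog, 9 had no counts in any callus library. They included 3 neighbouring lipid-transfer-like genes (AT4G22485, AT4G22490 and AT4G22505), with 71 ± 2.82, 130.2 ± 3.9 and 83.3 ± 6.79 TPM in shoots, the lipase *LTL1* (at least 552-fold), the aspartyl protease AT1G09750 (at least 938-fold), the nudix hydrolase *NUDT24* (at least 277-fold), the TRAF-like AT3G28220 (at least 208-fold) and *HBI1*, a bHLH factor of growth, with 64.6, 65.2 and 62.5 TPM. The remaining one, AT3G16670 of the Ole e 1 family, had 644, 734 and 697 TPM in WT shoots, against 0, 0 and 0.32 TPM in WT calli. In the other direction, *PGAZAT* (*ADPG2*), a polygalacturonase of organ separation, had 0, 0 and 0 TPM in WT shoots, against 2302, 1746 and 2372 TPM in WT calli, at least 22776-fold lower in shoots. *E12A11* (*MFT*), a PEBP-family gene best known from seed germination, had 0.88, 0.22 and 0.19 TPM in WT shoots, against 2762, 2715 and 2808 TPM in WT calli. It was thus abundant in all 3 callus libraries. The defensin-like AT3G63360 was at least 2078-fold lower, the uncharacterized AT1G62225 and the MADS-box gene AT1G17310 at least 505-fold and 478-fold lower, and 5 further genes had at most a few counts in any shoot library. These are the amino acid transporter-like *UMAMIT25* (0, 0 and 0 TPM in WT shoots, against 521, 511 and 517 TPM in WT calli), the cysteine protease AT1G29090 (0, 0.08 and 0.29 TPM in WT shoots, against 1654, 886 and 956 TPM in WT calli), the purple acid phosphatase *PAP20* (0, 0.06 and 0 TPM in WT shoots, against 246, 195 and 241 TPM in WT calli), the pectin lyase-like AT5G14650 (0, 0.13 and 0.22 TPM in WT shoots, against 891, 796 and 1104 TPM in WT calli) and the LEA-related AT5G60530 (0.06, 0.06 and 0 TPM in WT shoots, against 912, 578 and 913 TPM in WT calli). All 5 fell, with libraries of the groups that did not overlap.

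Many regulators of the shoot meristem and of organ boundaries rose, though not all. Of 24 listed, 20 were tested, of which 12 rose (60.0%, against 32.1% of all tested genes) and 4 fell (24.6% of all tested genes fell), with a median log2 fold change of 1.89. Their summed abundance was nonetheless lower in shoots, at 238 ± 2.46 TPM in WT shoots and 302 ± 24.9 TPM in WT calli (SD, n = 3 each). Most of the callus sum came from 1 member, *RAP2.6L*, which averaged 227 TPM in WT calli and 12.3 TPM in WT shoots. *STM*, the homeobox gene that maintains meristem cells, had 8.9, 9.55 and 8.87 TPM in WT shoots, against 0, 0 and 0 TPM in WT calli, at least 39.3-fold higher (adjusted p = 1.6e-06, edgeR). Its relative *KNAT1* had 23.7, 23.4 and 24.1 TPM in WT shoots, against 0.18, 0.17 and 0.27 TPM in WT calli (5.98 ± 0.24 log2). *ATH1*, a partner of these proteins, rose by 7.46 ± 0.37, and the receptor kinase *CLV1*, which limits meristem size, by 6.10 ± 0.16. Every shoot library was above every callus library for these 4 genes. The niche genes themselves were at the edge of detection: *WUS*, which specifies stem cells, had 0.32, 0 and 0 TPM in WT shoots, against 0, 0 and 0 TPM in WT calli, *CLV3*, the stem cell peptide, had 0.71, 0 and 0.64 TPM in WT shoots, against 0, 0 and 0 TPM in WT calli, and neither gene had enough counts to be tested. *ESR2*, an AP2 factor of early organs, was as low (0.1, 0.39 and 0.25 TPM in WT shoots, against 0, 0 and 0 TPM in WT calli) and was not tested. *CUC2*, a boundary factor, was low at both stages (1.09, 0.91 and 0.85 TPM in WT shoots, against 0.4, 0.31 and 0.07 TPM in WT calli) and was not called. Those that fell included *RAP2.6L*, an ERF factor induced by wounding and required for regeneration, with 12.1, 11.2 and 13.7 TPM in WT shoots, against 235, 202 and 242 TPM in WT calli (−4.89 ± 0.16 log2), and *PNF*, which has a role in the inflorescence meristem (−3.3 ± 0.15).

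Leaf patterning genes shared this direction. All 15 polarity genes were tested, and 12 rose while none fell (median 1.66). The abaxial YABBY gene *FIL* had 30.8, 32.3 and 32.7 TPM in WT shoots, against 0, 0 and 0 TPM in WT calli (adjusted p = 2.9e-08, edgeR), and its paralog *YAB3* had 31.1, 32.3 and 34.6 TPM in WT shoots, against 2.09, 2.18 and 2.23 TPM in WT calli (3.41 ± 0.16 log2). *FIL* had a single read over the 3 callus libraries, and *YAB3* was clearly detected in each. *AS2*, an adaxial factor, rose by 1.66 ± 0.32, while *KAN*, which acts abaxially, had 9.69, 8.95 and 9.75 TPM in WT shoots, against 4.47, 4.35 and 4.58 TPM in WT calli and was not called, at an edgeR log2 fold change of 0.51. Among 19 genes of leaf growth and maturation, 17 rose and 1 fell (median 3.42). *GRF5* and *GRF3* are growth-regulating factors of leaf cell number. *GRF5* had 9.94, 7.56 and 8.34 TPM in WT shoots, against 0, 0 and 0 TPM in WT calli, and *GRF3* had 29.7, 28.3 and 26.2 TPM in WT shoots, against 0.65, 0.92 and 0.47 TPM in WT calli. *TCP4*, which ends leaf cell division, rose by 4.76 ± 0.15 (34.2, 36.6 and 33.5 TPM in WT shoots, against 0.61, 1.02 and 0.94 TPM in WT calli). Not all members followed, since *PTF1*, a TCP gene, fell by 2.68 on the log2 scale and *AN3*, the co-activator of GRFs, was not called (24, 26.3 and 30 TPM in WT shoots, against 11.5, 20.4 and 15.1 TPM in WT calli).

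Stomatal genes rose, with an exception at the last step. Of 18 tested, 14 rose and 1 fell (median 5.42). *SPCH*, which starts the lineage, had 12, 10.1 and 8.73 TPM in WT shoots, against 0, 0.26 and 0.15 TPM in WT calli (5.69 ± 0.42 log2). *STOMAGEN*, the mesophyll peptide that promotes stomata, had 43.3, 28.5 and 37.1 TPM in WT shoots, against 0, 0 and 0 TPM in WT calli, at least 36-fold higher, and *TMM*, the receptor that spaces them, rose by 5.37 ± 0.20. *BASL*, a polarity protein of the asymmetric division, was at 0 in all callus libraries. The member that fell was *FAMA*, which makes guard cells, with 7.73, 10.3 and 8.58 TPM in WT shoots, against 14.6, 17.8 and 21.7 TPM in WT calli (−1.69 ± 0.17 log2, adjusted p = 1.7e-05, edgeR). It lost its call when TPM were tested with limma on log2(TPM + 1). *MYB60*, a regulator of mature guard cells, was also higher in calli (10.5, 13.7 and 10.6 TPM in WT shoots, against 46.4, 26.7 and 30.2 TPM in WT calli), while the guard cell potassium channel *KAT1* was higher in shoots (8.49, 8.08 and 6.95 TPM in WT shoots, against 0.88, 1.4 and 0.46 TPM in WT calli). Guard cell genes were thus split between the stages, and whether guard cells of the leaf explant persisted in calli was not tested.

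In the epidermis list 13 of 26 tested members rose and 4 fell (median 0.86), and with library size alone 1 fell. *MYB16* and *MYB106*, which control cuticle and cell shape, averaged 9.25 ± 0.804 and 7.55 ± 2.04 TPM in shoots and had no counts in calli. *PDF1*, an L1 layer gene, rose by 3.57 ± 0.36, and *ATML1*, the master factor of the layer, by 1.05 ± 0.10, a change near the threshold that was not called with RLE scaling or DESeq2. *ATML1* has more than 1 Col homolog in the tables, so its reads are uncertain. *GL3*, a trichome factor, was below 1 TPM in all 6 libraries and was not called. The acyltransferase of cutin *GPAT6* fell by 2.21 on the log2 scale, whereas the wax gene *CER1* (−1.03) and the cutin hydroxylase *LCR* (−1.51) lost their calls with library size alone.

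**Figure D2:**
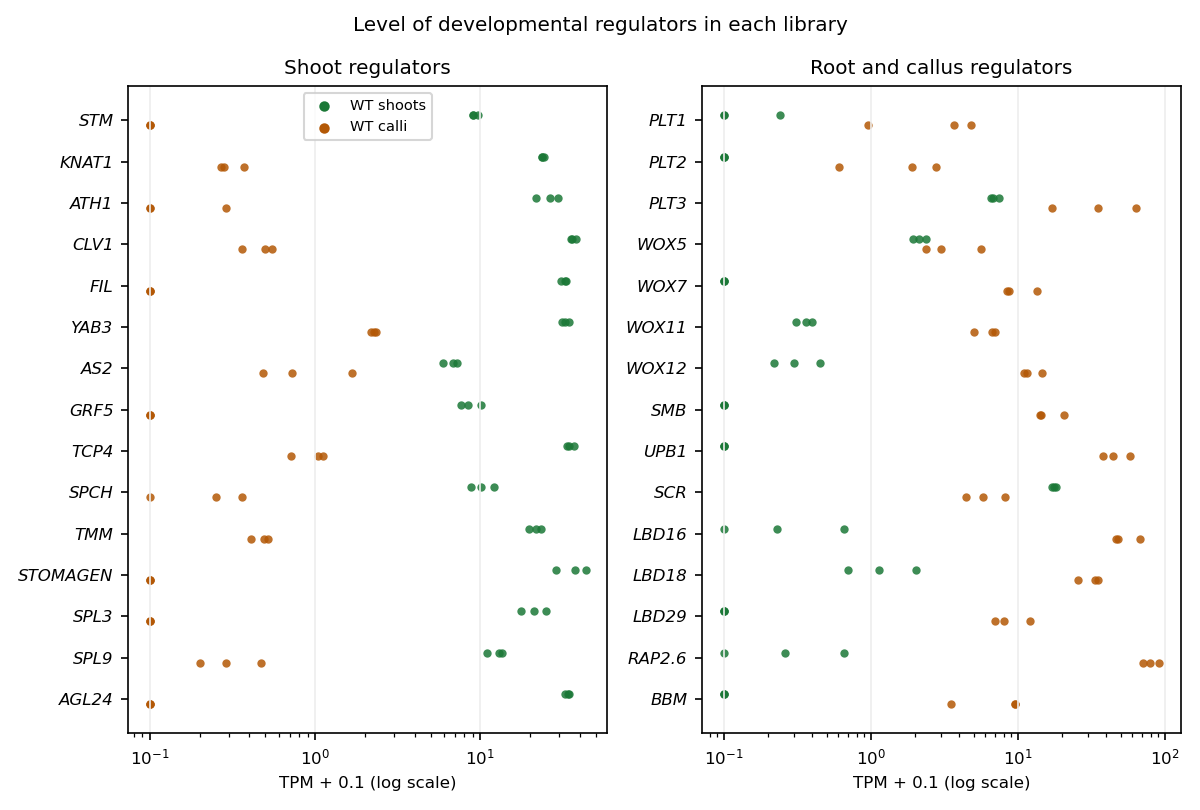
TPM + 0.1 on a log axis for 30 regulators, with 1 point per library (3 WT shoots, 3 WT calli) and the leftmost position meaning a listed value of 0. The shoot regulators drawn (left) are members that rose, and many are at 0 in all WT calli. Members of the same lists that fell (such as *RAP2.6L*, *PNF*, *PTF1* and *FAMA*) or were not called (such as *CUC2* and *KAN*) are not drawn. Most root and callus regulators drawn (right) show the reverse order, with *SCR* as an exception and the groups of *WOX5* touching. Members of their lists that rose (such as *ACR4*, *JKD* and *LBD11*) or were not called (such as *WIND1* and *ARF19*) are not drawn.

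Root meristem regulators that mark callus were lower in shoots. Of 25 tested root meristem genes 15 fell and 5 rose (median −3.42). *PLT1*, a root stem cell factor, had 0, 0.14 and 0 TPM in WT shoots, against 4.72, 3.58 and 0.86 TPM in WT calli, and *PLT2*, which acts with it, had 0, 0 and 0 TPM in WT shoots, against 2.67, 1.82 and 0.51 TPM in WT calli. *PLT3*, a related AP2 factor needed for pluripotency of callus, had 7.33, 6.7 and 6.46 TPM in WT shoots, against 63.4, 34.8 and 17.1 TPM in WT calli. Callus replicate 3 was the lowest callus library for these 3 genes. *WOX5*, of the quiescent centre, had 2.03, 1.85 and 2.27 TPM in WT shoots, against 5.55, 2.88 and 2.27 TPM in WT calli (−1.55 ± 0.39 log2, adjusted p = 0.0055, edgeR). Its groups touched at 2.27 TPM and it lost its call with library size alone. *WOX7*, *WOX11* and *WOX12*, of lateral and adventitious root founding, were at or below 0.35 TPM in every shoot library, and averaged 10.1 ± 2.83, 6.14 ± 1.02 and 12.3 ± 1.85 TPM in calli. *SMB*, a root cap factor, had 0, 0 and 0 TPM in WT shoots, against 20.4, 14.2 and 14 TPM in WT calli, at least 142-fold lower, and *UPB1*, which regulates the onset of root cell differentiation, had 0, 0 and 0 TPM in WT shoots, against 44.2, 58 and 37.8 TPM in WT calli, at least 85.6-fold lower. *SCR*, the ground tissue factor, went the other way (18, 16.9 and 17.64 TPM in WT shoots, against 8.06, 5.73 and 4.31 TPM in WT calli, 1.01 ± 0.15 log2), but its call rests on callus replicate 3, without which the value was 0.90. The receptor kinase *ACR4* rose by 2.42 ± 0.29, and *JKD*, which binds SCR, rose by 1.96 ± 0.26.

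Among 19 LBD and wound factors 10 fell and 1 rose (median −1.15). The auxin-induced callus initiators *LBD16*, *LBD18* and *LBD29* were each lower. *LBD16* had 0, 0.13 and 0.56 TPM in WT shoots, against 48.2, 46.2 and 67.9 TPM in WT calli (−8.78 ± 0.45 log2, adjusted p = 2e-07, edgeR), and *LBD29* had 0, 0 and 0 TPM in WT shoots, against 12, 7.97 and 6.86 TPM in WT calli, at least 43.8-fold lower. The wound ERF *RAP2.6* fell by 9.51 on the log2 scale, with 0.56, 0 and 0.16 TPM in WT shoots, against 92, 70.6 and 79 TPM in WT calli. Not every callus gene was lost: *WIND1*, which drives wound callus, had 299.8, 313 and 327 TPM in WT shoots, against 377, 400.1 and 312 TPM in WT calli, and *ARF19*, the auxin response factor upstream of the LBD genes, had 10.2, 10.6 and 12.2 TPM in WT shoots, against 10.7, 11.8 and 11.4 TPM in WT calli. Neither was called. The LBD that rose was *LBD11* (2.69 ± 0.24), and without callus replicate 1 there were 3 members that rose.

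Markers of differentiated root cells were partly present in calli. The root hair factor *RHD6* had 0.1, 0.3 and 0 TPM in WT shoots, against 47.7, 40.9 and 64.8 TPM in WT calli, and *RSL4*, which acts after it, had 0, 0 and 0.11 TPM in WT shoots, against 36.1, 27.9 and 39.1 TPM in WT calli. *COBL9*, a gene of the growing hair, stayed below 0.6 TPM in all 6 libraries, and *CASP1*, of the Casparian strip, was at 2.04 TPM in callus replicate 2 and lower elsewhere. Of 18 tested endodermis and suberin genes, 8 fell and 4 rose (median −0.68). *FAR4*, which makes suberin fatty alcohols, had 1.68, 1.53 and 1.93 TPM in WT shoots, against 48.4, 37.5 and 35.5 TPM in WT calli, and the acyltransferase *GPAT7* fell by 7.75 on the log2 scale (several homologs). *GPAT5*, also of suberin, was below 1 TPM in all 6 libraries and was not called. *MYB36*, which switches on the strip, fell by 1.45, a call lost with library size alone.

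Few genes of the embryo programme were detected at either stage. Only 6 of 27 listed genes had enough counts to be tested, of which 1 rose and 3 fell (median −1.2). *LEC1* and *LEC2*, master genes of embryo identity, were below 0.2 TPM in every library. *BBM*, an AP2 factor of embryos and root meristems, had 0, 0 and 0 TPM in WT shoots, against 9.5, 9.41 and 3.39 TPM in WT calli and fell (adjusted p = 2.1e-06, edgeR). The MADS gene *AGL18* fell, with 10.2, 14.2 and 11.7 TPM in WT shoots, against 24.7, 25.3 and 29.8 TPM in WT calli. *OLEO4*, an oleosin, was higher in shoots (38.3, 34.4 and 37.9 TPM in WT shoots, against 0.28, 0.33 and 0.62 TPM in WT calli).

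The media carry different hormones, and early hormone response genes were divided. Of 31 tested Aux/IAA and GH3 genes 13 fell and 7 rose, and the list's median of −0.35 changed sign to 0.19 with library size alone. The amino acid conjugases *GH3.1*, *GH3.2* and *GH3.3*, which remove active auxin, were all lower in shoots. *GH3.1* had 0.14, 0.18 and 0.15 TPM in WT shoots, against 23.8, 18.9 and 18.5 TPM in WT calli (−7.41 ± 0.22 log2), and *GH3.2* and *GH3.3*, which have several homologs in the tables, fell by 6.23 and 3.37. *IAA19*, a repressor induced in elongating tissue, averaged 20.9 ± 1.52 TPM in WT shoots and 108 ± 25.9 TPM in WT calli (SD, n = 3 each). By contrast *IAA3* had 52.7, 48.1 and 52.3 TPM in WT shoots, against 2.01, 1.35 and 1.27 TPM in WT calli (4.62 ± 0.17 log2) and *IAA27* rose by 3.3 ± 0.16. *IAA1* fell by 1.48, a call lost with library size alone, and *IAA29* rose (2.48, 1.66 and 2.97 TPM in WT shoots, against 1.67, 1 and 0.7 TPM in WT calli), although its groups overlapped in TPM. These Aux/IAA repressors therefore moved both ways between the stages.

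Cytokinin genes leaned upward: of 28 tested, 15 rose and 5 fell (median 1.11). The immediate response gene *ARR7* had 64.3, 60.1 and 56 TPM in WT shoots, against 2.45, 2.04 and 1.26 TPM in WT calli (4.43 ± 0.21 log2, adjusted p = 1.3e-07, edgeR). The related *RR5* rose by 1.99 ± 0.17 (several homologs), *ARR15* by 4.94 ± 0.59 and *ARR9* by 1.01 ± 0.14, near the threshold. Other response regulators did not follow. *ARR4* and *ARR8* (several homologs) were not called, and *ARR3* fell (0, 0.14 and 0 TPM in WT shoots, against 7.07, 2.18 and 1.63 TPM in WT calli). The biosynthesis gene *IPT3* had 15.3, 13.9 and 15.5 TPM in WT shoots, against 0, 0.14 and 0 TPM in WT calli, and *CYP735A2*, which makes trans-zeatin forms, rose by 3.9 ± 0.62. Among the oxidases that degrade cytokinin, *CKX1* rose by 5.94 ± 0.24 while *CKX5* fell, with 1.56, 2.21 and 1.32 TPM in WT shoots, against 35.1, 33.7 and 42.5 TPM in WT calli. The cytokinin-activating *LOG1* rose and *LOG7* fell (6.02 and −3.40 log2), and both have several homologs.

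Greening enzymes showed some of the largest shared changes. Of 25 chlorophyll synthesis and greening genes 22 rose and 1 fell (median 4.09). *GUN4* and *GUN5*, of the magnesium chelatase step, rose by 6.59 ± 0.15 and 5.80 ± 0.14. *CRD1*, the cyclase subunit, had 954, 937 and 936 TPM in WT shoots, against 17.35, 18.6 and 18 TPM in WT calli. *GLK1*, a transcription factor of chloroplast development, had 118, 109 and 113 TPM in WT shoots, against 2.59, 3.81 and 5.73 TPM in WT calli (4.07 ± 0.23 log2). The exception was in the first committed step: *HEMA1*, the glutamyl-tRNA reductase of green tissue, rose by 1.43 ± 0.14, while its paralog *HEMA2* fell by 2.64 (13.1, 14.9 and 13.9 TPM in WT shoots, against 79.9, 54 and 59.5 TPM in WT calli). The light-dependent protochlorophyllide reductases *PORA*, *PORB* and *PORC* all rose, by 7.6, 7.30 and 5.56 log2 (*PORA* and *PORB* have several homologs).

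For the Calvin cycle and photorespiration 28 of 31 members rose and 2 fell (median 5.70). *RCA*, Rubisco activase, had 1974, 1938 and 1962 TPM in WT shoots, against 15.5, 23.58 and 21.6 TPM in WT calli, *SBPASE* rose by 6.31 ± 0.19, and the carbonic anhydrase *CA2* by 9.77 ± 0.15. *RBCS1A* had 14534, 15745 and 16364 TPM in WT shoots, against 16.7, 34.7 and 26.5 TPM in WT calli, and *RBCS2B* 11.06 log2, both with several homologs. *GAPA*, of the cycle's reducing step, and *SHM1*, of photorespiration, rose by 5.68 and 5.60 (several homologs each). Those that fell, *GLYK*, the last enzyme of photorespiration (−1.44), and the regulator *CP12-3* (−1.17), lost their calls with library size alone.

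The plastid's own gene expression machinery rose with them. Of 47 tested plastid ribosomal proteins, taken as the genes that RefSeq's notes place in the plastid and call a structural constituent of the ribosome, 36 rose and 2 fell (median 3.82). *PSRP3/1* averaged 502 ± 21.9 TPM in WT shoots and 8.17 ± 0.775 TPM in WT calli, and *PRPL11* 331 ± 14.4 TPM in WT shoots and 4.19 ± 1.06 TPM in WT calli (SD, n = 3 each). The locus AT5G15260, named for a ribosomal protein L34e domain, fell, with 12.9, 12.3 and 12.6 TPM in WT shoots, against 48.3, 44.9 and 47.6 TPM in WT calli. The summed abundance of the list was 14272 ± 292 TPM in shoots and 970.3 ± 204.7 TPM in calli (SD, n = 3 each). Genes whose RefSeq product is named plastid transcriptionally active, parts of the plastid RNA polymerase complex, rose in 13 of 13 cases (median 2.48). Pentatricopeptide repeat proteins, which bind organelle transcripts, rose in 123 of 187 cases and fell in 4 (median 1.40). These groups were formed by product name after the values had been seen. The pentatricopeptide repeat group was not divided by organelle, so its rises cannot be assigned to the plastid.

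Storage carbohydrate genes mostly followed. Of 42 tested starch and sucrose genes 30 rose and 6 fell (median 2.14). The beta-amylase *BAM5* had 334, 345 and 334 TPM in WT shoots, against 0.91, 1.05 and 1.07 TPM in WT calli (7.87 ± 0.13 log2), and *GBSS1*, which makes amylose, rose by 5.37 ± 0.27. *APL3*, of ADP-glucose synthesis (several homologs), and *SEX1*, which starts starch breakdown, rose by 2.58 and 2.07. Of the genes that fell, *cwINV1*, the cell wall invertase that feeds sink tissue, had 11.8, 13.7 and 11.7 TPM in WT shoots, against 504, 449 and 408 TPM in WT calli (−5.64 ± 0.13 log2), and *GPT2*, which imports glucose phosphate into plastids, had 124, 114 and 125 TPM in WT shoots, against 307, 286 and 376 TPM in WT calli. *SPP1*, a sucrose phosphatase, fell by 4.78. Sugar export genes of the phloem rose: *SWEET13*, a sucrose exporter, had 32.3, 31.2 and 31.1 TPM in WT shoots, against 0, 0.17 and 0 TPM in WT calli, *SWEET11*, its relative, rose by 8.68 (several homologs), and *SUC2*, the companion cell loader, had 109.9, 112 and 117 TPM in WT shoots, against 3.31, 5.32 and 1.67 TPM in WT calli (4.55 ± 0.30 log2). In that phloem list 17 of 25 tested members rose and 3 fell (median 2.81), with *APL*, the factor of phloem identity, at 3.97 ± 0.30. *SUC3* and *TMO6* fell by 1.09 and 1.41 and lost their calls with library size alone.

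Nitrogen assimilation genes differed by enzyme. Of 21 tested, 4 rose and 9 fell (median −0.58), and with library size alone 7 rose. Of the plastid enzymes, *GLU1*, the ferredoxin-dependent glutamate synthase, had 157, 162 and 163 TPM in WT shoots, against 0.5, 1.44 and 0.88 TPM in WT calli, and *GS2*, glutamine synthetase, had 627, 633 and 629 TPM in WT shoots, against 19.1, 19.1 and 16.1 TPM in WT calli. A further glutamate synthase gene, *GLU2*, fell (25.17, 27.6 and 27.3 TPM in WT shoots, against 63.8, 64.8 and 79.4 TPM in WT calli). Glutamate dehydrogenase *GDH2* fell, with 113, 107 and 109.7 TPM in WT shoots, against 1636, 1674 and 1982 TPM in WT calli (several homologs), and so did the glutamine synthetase *GLN1;4* (−3.21). Nitrate reductase *NIA1* was not called (83.5, 81.2 and 80.6 TPM in WT shoots, against 76.9, 95.6 and 78.6 TPM in WT calli). The more abundant nitrate reductase *NIA2* fell (348, 347 and 350 TPM in WT shoots, against 910, 989 and 1079 TPM in WT calli, −2.13 ± 0.14 log2).

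Uptake genes known from roots went both ways, also for a single nutrient: of 28 tested, 13 rose and 10 fell (median 0.93). The nitrate transporter *NRT1.1* had 54.4, 51.9 and 53.4 TPM in WT shoots, against 450.3, 534 and 550.3 TPM in WT calli (−3.86 ± 0.14 log2, adjusted p = 2.7e-08, edgeR), the sulphate transporter *SULTR1;2* had 9.65, 10.4 and 10.1 TPM in WT shoots, against 365, 448 and 703 TPM in WT calli, and the phosphate transporter *PHT1;1* fell by 5.70 (several homologs). *SULTR1;3*, of the phloem, and *bHLH38*, an iron-deficiency regulator, had no counts in calli, and averaged 7.12 ± 0.403 and 18.5 ± 1.2 TPM in shoots, at least 53.9-fold and 48-fold higher. The high-affinity nitrate transporter *NRT2.1* was below 1 TPM in all 6 libraries and was not tested. *IRT1*, the root iron transporter downstream of bHLH38, stayed at or below 0.42 TPM in all 6 libraries.

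Dividing tissue genes were higher in shoots than in calli. Of 60 tested cell cycle and replication genes 33 rose and 4 fell (median 1.26). *CYCD1;1* and *CYCD3;1*, cyclins of the entry into division, rose by 4.07 ± 0.31 and 1.29 ± 0.13, and *CYCA1;1* by 2.99 ± 0.32. The kinase *CDKB2;1* (several homologs) and the replication factor *MCM2* rose by 1.58 and 1.41. *CYCB1;1*, of mitosis, was not called (6.33, 7.94 and 7.96 TPM in WT shoots, against 5.32, 4.72 and 1.48 TPM in WT calli). The inhibitors *KRP1* and *KRP6* went the other way. *KRP1* had 18.5, 19 and 20.4 TPM in WT shoots, against 85.8, 86 and 86.8 TPM in WT calli (−2.45 ± 0.11 log2, adjusted p = 7.3e-08, edgeR), and *KRP6* fell by 2.77. Summed over the list, cell cycle genes had 1086 to 1111 TPM in shoots, and 688, 641 and 518 TPM in calli.

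Ribosome genes moved less, and their counts depend on scale and on 1 library. Of 161 tested cytosolic ribosomal proteins, taken from RefSeq's notes on the cytosolic ribosome, 64 rose and 1 fell (median 0.90). Those shares were 39.8% and 0.62%, against 32.1% and 24.6% of all tested genes. With library size alone 136 rose, on a scale where 42.9% of all tested genes rose. Without callus replicate 3 the count that rose was 42, in a setting where 5966 of 19850 tested genes rose. *EMB3136*, of the L10 family, rose by 5.20 ± 0.17, and the gene that fell was *SAG24* (263, 261 and 272 TPM in WT shoots, against 1018, 1305 and 1451 TPM in WT calli, several homologs). Of 31 nucleolar factors of ribosome assembly 19 rose and 1 fell (median 1.03), and without callus replicate 3 the count was 13. *NUC-L1*, nucleolin, had 341, 356 and 344 TPM in WT shoots, against 90.2, 77.1 and 30.9 TPM in WT calli, and *CBF5*, a pseudouridine synthase, had 112, 109.9 and 104 TPM in WT shoots, against 30.7, 20.9 and 10.5 TPM in WT calli. *FIB2*, fibrillarin, had 63.1, 60.8 and 62.2 TPM in WT shoots, against 16.6, 17.1 and 4.07 TPM in WT calli. Callus replicate 3 was the lowest library for all of these. *REIL1*, a late 60S factor, was the member that fell (−1.34), and it lost its call with library size alone.

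**Figure D3:**
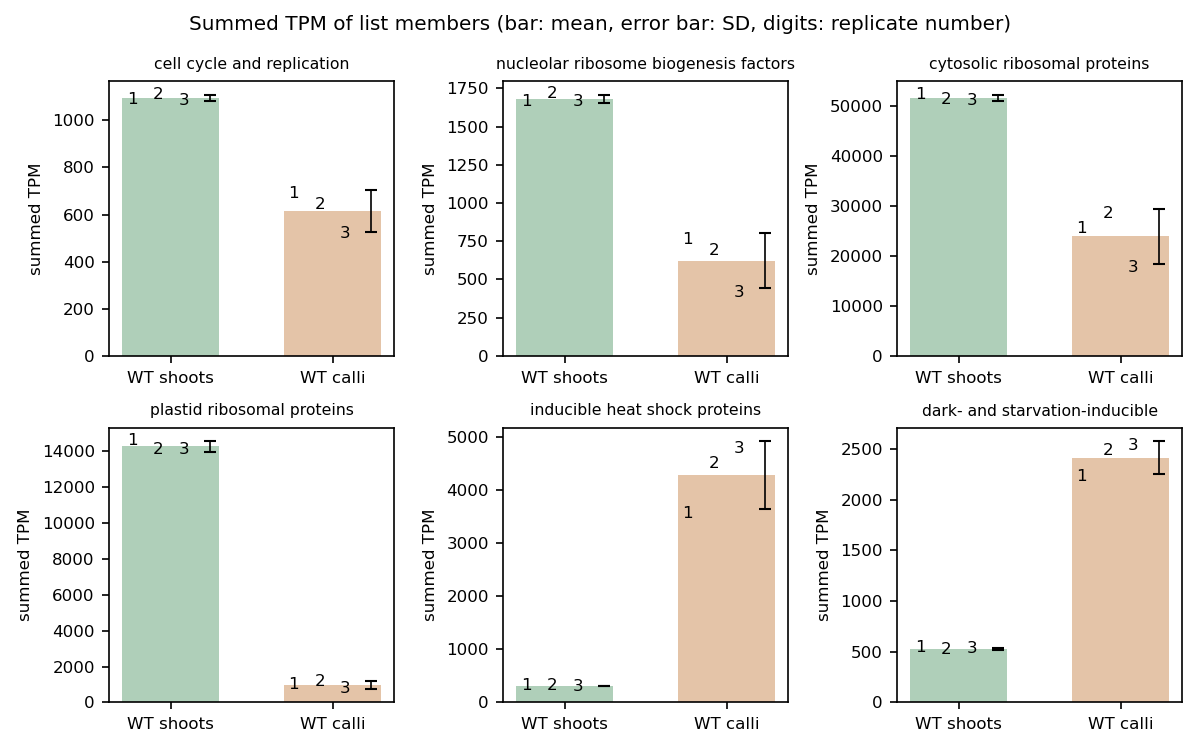
Summed TPM of all members of 6 gene lists in WT shoots and WT calli, with bars at the mean of 3 libraries, error bars of 1 SD and digits for the replicate. Callus replicate 3 is the lowest callus library for cell cycle genes (518 TPM), nucleolar factors (417 TPM) and cytosolic ribosomal proteins (17714 TPM), and all 3 shoot libraries lie above all callus libraries in these lists.

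Heat stress proteins were lower in shoots almost throughout. Of 29 inducible heat shock proteins and their regulators, 28 fell in shoots and none rose (median −4.45). *HSFA2*, the heat-inducible activator, had 1.37, 1.34 and 0.87 TPM in WT shoots, against 81.7, 110.2 and 161 TPM in WT calli (−7.14 ± 0.36 log2, adjusted p = 1.8e-07, edgeR). The chaperone *HSP101* had 5.13, 4.43 and 3.98 TPM in WT shoots, against 43.8, 81.9 and 78.9 TPM in WT calli. Among small heat shock proteins, *HSP17.6B* was detected in shoots (14.25, 7.99 and 5.12 TPM in WT shoots, against 203, 320 and 256 TPM in WT calli). Others were nearly absent from shoots, with *HSP17.6* at 0.52, 0.27 and 0.22 TPM in WT shoots, against 85.7, 151 and 96.9 TPM in WT calli and *HSP17.4* (several homologs) down by 8.89. *HSP90.1*, also with several homologs, fell by 6.36, and the plastid chaperone *HSP21* by 6.24, with 0, 0 and 0.25 TPM in WT shoots, against 1.87, 7.48 and 3.05 TPM in WT calli. *HSFB2A* was the member not called. Summed over the list, shoots had 300.1 to 312.5 TPM and calli 3565 to 4785 TPM. The study's methods give the same temperature for both stages, and the cause of these falls was not tested.

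Low-oxygen genes changed by member, with several enzymes higher in calli. Of 23 tested, 11 fell and 4 rose (median −0.94). *ADH1*, alcohol dehydrogenase, had 168, 177 and 165 TPM in WT shoots, against 1633, 2203 and 1677 TPM in WT calli (−3.9 ± 0.15 log2, adjusted p = 3.1e-08, edgeR), and the haemoglobin *HB1* had 135, 141 and 121 TPM in WT shoots, against 1209.8, 1638 and 1411 TPM in WT calli. *SRO5* fell by 4.63, *LBD41* by 2.32 and *PDC1* (several homologs) by 2.06. The oxygen-sensing cysteine oxidases differed from each other, *PCO1* being lower and *PCO2* higher in shoots (−1.75 and 1.34 log2). *ACO1*, of ethylene synthesis, rose (37.4, 41.3 and 41 TPM in WT shoots, against 6.59, 17 and 2.56 TPM in WT calli). *SUS4*, a sucrose synthase induced in hypoxia, was not called (63, 65.6 and 68.4 TPM in WT shoots, against 26.7, 50.4 and 20 TPM in WT calli).

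Genes induced by darkness and sugar starvation were lower in shoots. Of 21 tested, 14 fell and 2 rose (median −1.85). *DIN2*, a glucosidase, had 0.94, 1.23 and 0.75 TPM in WT shoots, against 673, 860.0 and 1044 TPM in WT calli (−10.35 ± 0.31 log2, adjusted p = 1.1e-08, edgeR). *ASN1*, asparagine synthetase, had 1.96, 2.4 and 2.27 TPM in WT shoots, against 105, 109 and 98.1 TPM in WT calli, and *SWEET15*, the sugar exporter of senescence, had 3.05, 2.6 and 2.68 TPM in WT shoots, against 277, 190.2 and 254 TPM in WT calli. *SEN1* and *DIN10* fell by 3.1 and 2.62. The members that rose were *LSMT-L* (4.90 ± 0.23) and *DIN11* (3.26, several homologs). *LSMT-L* is annotated as a Rubisco methyltransferase family protein and not as a gene induced by darkness.

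**Figure D4:**
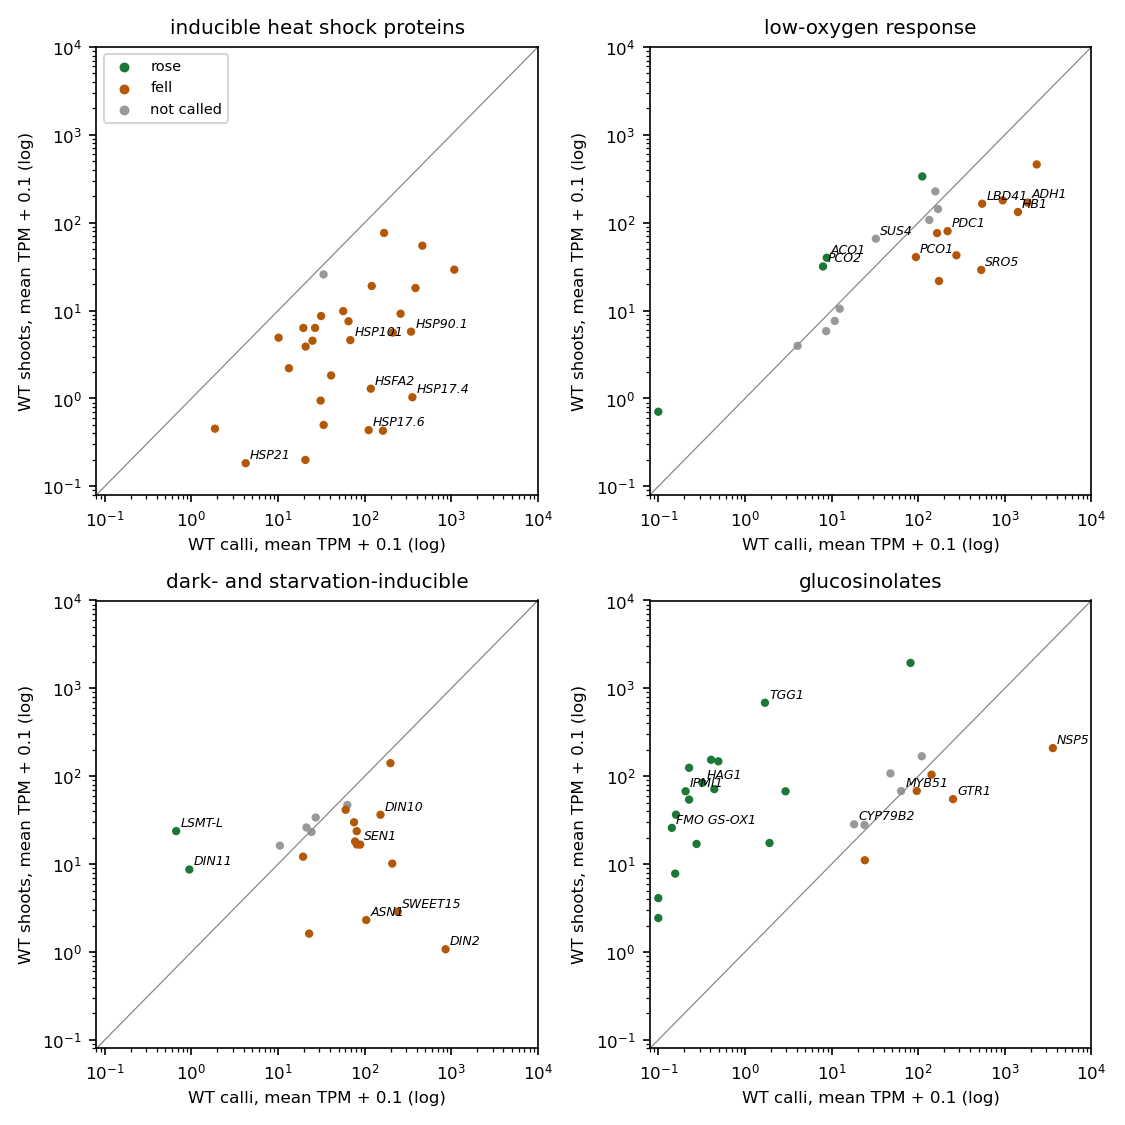
Mean TPM + 0.1 of each tested member in WT shoots (vertical, log axis) against WT calli (horizontal, log axis), n = 3 libraries each, for 4 gene lists, with the diagonal marking equal levels and colours the call. All heat shock genes lie below the diagonal, and glucosinolate genes form a group near 0 in calli and another close to the diagonal.

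Abscisic acid and dehydration genes fell in 18 of 35 cases and rose in 7 (median −1.11). *HAI1*, a phosphatase of the pathway, had 7.63, 6.67 and 6.45 TPM in WT shoots, against 62.5, 63.4 and 61.4 TPM in WT calli (−3.82 ± 0.11 log2), and *LEA4-5* fell by 3.68. The cold-regulated pair *COR15A* and *COR15B*, which protect chloroplast membranes, rose by 5.20 ± 0.15 and 8.08 ± 0.31. *RD29A* (92.3, 90.6 and 85.9 TPM in WT shoots, against 73.5, 74.2 and 66.7 TPM in WT calli) and *RAB18* (26.1, 27.9 and 26.5 TPM in WT shoots, against 29.6, 43.8 and 45.5 TPM in WT calli) were not called. Detoxifying tau-class glutathione transferases fell in 11 of 19 cases and rose in 5 (median −4.35). *GSTU5* averaged 1.51 ± 0.263 TPM in WT shoots and 786 ± 102 TPM in WT calli (SD, n = 3 each; several homologs), whereas *GSTU20* had 884, 863 and 834 TPM in WT shoots, against 0.45, 3.21 and 0.16 TPM in WT calli. *GSTU23* was higher in shoots (6.76, 7.22 and 7.35 TPM in WT shoots, against 0, 0 and 0.16 TPM in WT calli) and *GSTU22* lower (0, 0 and 0 TPM in WT shoots, against 4.67, 7.44 and 14.2 TPM in WT calli). Class III peroxidases, of which 39 of 65 were tested, rose in 15 cases and fell in 21 (median −1.60): AT5G58390 had 175, 155 and 158 TPM in WT shoots, against 0.13, 0 and 0 TPM in WT calli, and AT2G18980 had 0.74, 0.82 and 0.55 TPM in WT shoots, against 498, 468 and 573 TPM in WT calli. AT4G11290 rose by 4.80 ± 0.27. *DOX1*, a fatty acid dioxygenase on that list by its peroxidase annotation, fell by 12.41, with 0.17, 0.41 and 0.42 TPM in shoots and 1122, 1088 and 1541 TPM in calli.

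Glucosinolate genes, of defence metabolism, mostly rose. Of 27 tested glucosinolate genes 17 rose and 5 fell (median 5.77). Most listed genes of the methionine-derived (aliphatic) branch were near 0 TPM in calli. *HAG1* (*MYB28*), its main activator, had 87.8, 84.9 and 80 TPM in WT shoots, against 0.21, 0.38 and 0.08 TPM in WT calli (8.22 ± 0.25 log2, adjusted p = 1.1e-08, edgeR), and the enzymes *IPMI1* and *CYP83A1* rose by 8.89 ± 0.35 and 8.48 ± 0.25. The S-oxygenase *FMO GS-OX1* had 28.1, 25.2 and 24 TPM in WT shoots, against 0.08, 0.05 and 0 TPM in WT calli (several homologs). The sulfotransferase *SOT17* of this branch was an exception, with 28.6, 26.8 and 28.1 TPM in WT shoots, against 22.5, 23.3 and 26 TPM in WT calli, and was not called, and *SOT18* rose by 3.95 ± 0.23 over a callus mean of 2.84 TPM. Members of the tryptophan-derived (indolic) branch differed from each other. *MYB34*, an activator of this branch, had 18.7, 15 and 17 TPM in WT shoots, against 0, 0.43 and 0.1 TPM in WT calli (5.99 ± 0.38 log2), and *CYP79B3* rose by 2.61 ± 0.50 (several homologs). *MYB51*, a further activator, had 67.9, 64.4 and 70.6 TPM in WT shoots, against 50.2, 63.3 and 76.7 TPM in WT calli, and *CYP79B2* (several homologs) 30, 27.4 and 27.4 TPM in WT shoots, against 16.1, 18.4 and 20 TPM in WT calli. *MYB51* and *CYP79B2* were not called. *CYP83B1* was not called either (168, 168 and 171 TPM in WT shoots, against 104, 97.9 and 128 TPM in WT calli). *CYP81F2* fell by 1.54 on the log2 scale (9.89, 10.5 and 12.5 TPM in WT shoots, against 16.6, 22.2 and 33.6 TPM in WT calli). The glucosyltransferase *UGT74B1* fell by 1.13. The calls of *CYP81F2* and *UGT74B1* were lost with library size alone. The myrosinase *TGG1*, which cleaves glucosinolates, had 689.6, 669.7 and 699 TPM in WT shoots, against 1.48, 1.97 and 1.36 TPM in WT calli. *NSP5*, which directs the cleavage to nitriles, had 208, 209.6 and 209 TPM in WT shoots, against 3384, 3577 and 3805 TPM in WT calli (−4.45 ± 0.14 log2), and the transporter *GTR1* fell by 2.64. Of the 5 that fell, 3 kept the call without callus replicate 3 and 2 with library size alone.

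Flavonoid genes rose in 18 of 22 tested cases and fell in 2 (median 3.83). *LDOX* and *TT19*, of anthocyanin synthesis and transport, averaged 35.6 ± 0.395 and 56.3 ± 5.12 TPM in shoots and had no counts in calli. Chalcone synthase *TT4* had 178, 198 and 195 TPM in WT shoots, against 1.59, 1.22 and 2.93 TPM in WT calli, flavonol synthase *FLS1* rose by 4.30 ± 0.24, *DFR* by 8.83 ± 0.21 and the activator *PAP1* by 2.80 ± 0.26. *C4H*, earlier in the phenylpropanoid pathway, fell, with 183, 179 and 182 TPM in WT shoots, against 703, 838 and 932 TPM in WT calli.

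Jasmonate genes rose in 11 and fell in 13 of 34 cases, with a median of −0.33 that turned to 0.20 with library size alone. The share that rose, 32.4%, was close to the 32.1% of all tested genes, and 38.2% fell, against 24.6%. The plastid lipoxygenase *LOX2*, of jasmonate synthesis in leaves, had 874, 892 and 905 TPM in WT shoots, against 6.38, 7.71 and 7.36 TPM in WT calli (6.46 ± 0.15 log2), while *LOX1*, of the other lipoxygenase class, had 19.1, 20.1 and 19.2 TPM in WT shoots, against 1241, 1221 and 1714 TPM in WT calli (−6.65 ± 0.24). *AOS*, the allene oxide synthase between lipoxygenase and jasmonate, had 177, 178 and 182 TPM in WT shoots, against 104, 56.1 and 51.2 TPM in WT calli and was not called, but was called as a rise with library size alone and without callus replicate 1. *CYP94B3*, which breaks down jasmonate-isoleucine, had 4.07, 4.4 and 2.43 TPM in WT shoots, against 386, 321 and 274 TPM in WT calli. *VSP2* and *PDF1.3*, outputs of different branches, averaged 254 ± 6.97 and 78.1 ± 9.24 TPM in shoots, against at most 0.3 TPM in any callus library (several homologs each). Several JAZ genes (jasmonate-ZIM-domain proteins) went the other way. *JAZ1* had 150, 145 and 140 TPM in WT shoots, against 1132, 723 and 791 TPM in WT calli (−2.95 ± 0.14 log2). *JAZ2*, *JAZ3* and *JAZ10* fell by 2.04, 3.32 and 4.14, while *JAZ9* rose by 1.33 ± 0.12. Salicylate genes rose in 8 and fell in 8 of 28 cases, with a median of −0.25 that turned to 0.29 with library size alone. Both shares, 28.6%, were close to those of all tested genes (32.1% rose and 24.6% fell). The salicylate markers *PR1* and *PR5*, secreted defence proteins, both rose. *PR1* had 11.3, 12.3 and 13.6 TPM in WT shoots, against 0, 0 and 0 TPM in WT calli, at least 22.8-fold higher (several homologs), and *PR5* had 19.2, 21.4 and 21.4 TPM in WT shoots, against 7.65, 3.8 and 7.15 TPM in WT calli (1.49 ± 0.20 log2). The third marker, *BGL2*, had 32.4, 29.9 and 28.9 TPM in WT shoots, against 24.8, 20.5 and 27.8 TPM in WT calli and was not called. *PAD4* rose by 1.81 ± 0.21 and *WRKY53* by 3.12 ± 0.24, *EDS1* was not called (20.8, 18.4 and 19.9 TPM in WT shoots, against 14.2, 9.44 and 7.36 TPM in WT calli), and *WRKY38* fell by 4.43. *CYP71A12*, of camalexin synthesis, fell by 6.67 (several homologs), yet *PAD3*, the last enzyme of that route, was not called (5.18, 5.17 and 4.99 TPM in WT shoots, against 1.14, 3.78 and 4.26 TPM in WT calli). Over all genes with a WRKY DNA-binding product name, 30 of 46 fell and 6 rose, and of NAC domain genes 36 of 57 fell and 11 rose (product groups formed after the values had been seen).

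Cell wall genes changed by member. Expansins, which loosen walls, rose in 9 of 17 tested cases and fell in 4 (median 1.19): *EXPA5* had 26.7, 21.2 and 24.9 TPM in WT shoots, against 0.35, 0.1 and 0 TPM in WT calli, and *EXPB2* had 0, 0.11 and 0 TPM in WT shoots, against 37.4, 37.2 and 28 TPM in WT calli. *EXPA11* rose by 5.94 ± 0.29 and *EXPA17* was lower (0.5, 0.12 and 0 TPM in WT shoots, against 13.7, 18.3 and 7.72 TPM in WT calli). Xyloglucan endotransglucosylases rose in 7 and fell in 10 of 22 cases, with a median of −0.27 that turned to 0.26 with library size alone. The share that rose, 31.8%, was close to the 32.1% of all tested genes, and 45.5% fell, against 24.6%. *XTH6* had 42.2, 50.4 and 52.9 TPM in WT shoots, against 0, 0.17 and 0 TPM in WT calli, while *XTH11* had 2.59, 2.79 and 2.58 TPM in WT shoots, against 1474, 1359 and 1530.1 TPM in WT calli (−9.58 ± 0.18 log2, adjusted p = 3.6e-09, edgeR). *XTH32* had 65, 63.2 and 64 TPM in WT shoots, against 0.82, 0 and 0.3 TPM in WT calli, and *XTH14* 0.11, 0 and 0 TPM in WT shoots, against 91.9, 104 and 134 TPM in WT calli (several homologs). Secondary wall and xylem genes rose in 28 of 40 cases and fell in 5 (median 2.58). *IRX3*, a cellulose synthase of xylem, rose by 3.79 ± 0.23, the xylem protease *XCP2* by 4.23 ± 0.33 and the factor *MYB46* by 2.14 ± 0.25. *IRX15*, of xylan, rose by 4.28 ± 0.55 (several homologs). *VND7*, which starts vessel formation, was not called (2.49 ± 0.275 TPM in WT shoots and 2.05 ± 0.97 TPM in WT calli). The metacaspase *MC9* fell, with 8.64, 9.14 and 8.33 TPM in WT shoots, against 299, 146 and 211 TPM in WT calli, and the lignin gene *CAD5* by 2.78.

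Light receptors and the clock had medians near 0. Of 30 photoreceptor and light signalling genes 10 rose and 4 fell (median 0.18), and with library size alone 1 fell. The share that rose, 33.3%, was close to that of all genes, and the summed abundance of the list was 1241 to 1271 TPM in shoots and 596 to 642 TPM in calli. *PHOT1*, the blue light receptor of phototropism, had 133, 129.7 and 129 TPM in WT shoots, against 1.04, 2.69 and 1.85 TPM in WT calli (5.62 ± 0.24 log2), and *PIF5*, a bHLH factor degraded in light, had 109, 110.3 and 112 TPM in WT shoots, against 2.98, 1.55 and 1.53 TPM in WT calli. *HY5*, the factor that promotes photomorphogenesis, was lower in the light-grown shoots, with 8.75, 5.85 and 6.94 TPM in WT shoots, against 98.8, 129 and 91.7 TPM in WT calli (−3.98 ± 0.16 log2, adjusted p = 4.4e-08, edgeR). *PHYA* was not called (51.3, 57.1 and 56.2 TPM in WT shoots, against 34.5, 35.2 and 30.1 TPM in WT calli). *ELIP1*, an early light-induced protein, was not called either (15.5, 14.7 and 14.4 TPM in WT shoots, against 3.79, 9.57 and 10.2 TPM in WT calli). *BBX21* fell by 1.16, a call lost with library size alone. Of 21 clock genes 3 rose and 5 fell, with a median of −0.37 that turned to 0.18 with library size alone. The share that fell, 23.8%, was close to the 24.6% of all tested genes, and 14.3% rose, against 32.1%. *CHE*, a TCP repressor of *CCA1*, had 69.4, 69.4 and 69.3 TPM in WT shoots, against 0.77, 1.61 and 0.84 TPM in WT calli. *CCA1*, *LHY* and *GI* were not called, and *CCA1* had 6.53, 6.53 and 6.91 TPM in WT shoots, against 3.2, 2.63 and 2.84 TPM in WT calli. *PRR9*, a morning repressor, fell by 1.79, and *LNK2* rose by 1.75 ± 0.09. *ELF4*, of the evening complex, fell by 2.37. The time of day of collection is not given in the sources used here.

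Genes of ageing and flowering time rose in 22 of 32 tested cases and fell in 4 (median 2.47). *SPL3*, a target of miR156 that marks the adult phase, had 17.44, 21.2 and 24.9 TPM in WT shoots, against 0, 0 and 0 TPM in WT calli, at least 41.4-fold higher. *SPL9*, of the same family, rose by 5.07 ± 0.22. The MADS gene *AGL24* had 33.8, 32.5 and 34.5 TPM in WT shoots, against 0, 0 and 0 TPM in WT calli, and *SOC1*, which acts with it, had 17.2, 17.43 and 15.3 TPM in WT shoots, against 1.15, 2.46 and 3.37 TPM in WT calli. Floral identity genes were low: *LFY* and *AP1* were below 1 TPM in all 6 libraries. The flowering repressor *FLC* was at or near 0 in all 6 libraries and was not tested, while *MAF1*, of the same family, fell (2, 2.74 and 2.02 TPM in WT shoots, against 23.3, 26.9 and 21.5 TPM in WT calli, several homologs). *PI*, a floral organ gene, nonetheless had 2.33, 2.33 and 1.57 TPM in WT shoots, against 27.8, 20.1 and 15.4 TPM in WT calli and fell, whereas its partner *AP3* did not pass 1.14 TPM in any library.

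The same stages of *dme-2* gave these changes again in TPM. The 3 shoot and 3 callus libraries of *dme-2* did not overlap in the same direction for 5914 of the 6291 loci that rose in WT (94.0%, against 52.4% of all tested loci) and for 4095 of the 4834 that fell (84.7%, against 25.4%). The opposite order was found for 7 and 92 loci. The *dme-2* callus counts were not used, because they do not follow the TPM of the same name: the median log2 deviation between both tables was 0.738 to 0.921 there, against 0.0631 to 0.105 in the other libraries. Which of them is right was not tested, so this recurrence rests on the *dme-2* callus TPM being right.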

How the data were processed

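Stranded mRNA libraries were aligned by the authors to a L*er* assembly (STAR 2.7.10a), and transcript abundance came from RSEM 1.3.1. They deposited whole-number counts per L*er* locus without normalization (the step that made them is not given in the sources used here) and TPM values, which the authors scaled to transcript length and to the same sum in every library. Both tables hold 27147 loci. Precision follows from total counts of 12981250 to 20128757 per WT library and from the spread between the 3 biological replicates of a group. p-values measure that spread only.

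For the counts of the 6 WT libraries, edgeR 4.0.16 was run in R 4.3.3: TMM factors, filterByExpr, the quasi-likelihood test and Benjamini-Hochberg adjustment over 19616 loci. On simulated data edgeR recovered 193 of 200 changed genes with 204 calls (19529 genes), and DESeq2 195 with 222 calls. Far fewer genes were changed there than were called between WT shoots and WT calli. The simulation therefore cannot show how well the scaling works in this comparison. Alternatives were RLE factors, library size only, a minimum of 1 count in any library or of 10 counts in each, glmTreat, DESeq2 1.42.0, limma 3.58.1 on log2(TPM + 1) and log2(TPM + 0.1) where a locus averaged 1 TPM or more, a fit with the 3 *dme-2* shoot libraries (9 libraries), the replicate number as a block, and leaving out each library in turn. Against a group with no counts, folds are lower bounds from a floor of 3 counts per library.

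Symbols come from the Col homologs in the deposited tables and RefSeq's annotation of TAIR10.1. A locus with 1 homolog took its name (22817 loci), and a gene with several took the locus whose neighbours match, which is marked as uncertain. The comparison and the 37 lists (1275 genes, 1132 tested) were chosen with earlier results of these data known, and photosystem, light-harvesting and RNA-directed DNA methylation genes were left out of them. The plastid ribosomal protein list and the product groups were added after values had been seen. Named genes are the key genes of each list, up to 2 largest rises and 2 largest falls per list among called members with a mean of at least 5 TPM in the higher group and no overlap between groups, the 10 largest rises and falls over all loci with 1 homolog and at least 20 TPM, the 10 most abundant loci per stage, and cell type markers. Light-harvesting and photosystem genes among the most abundant loci are not named. A further gene that this rule selects is not reported here. *CLV1*, *PLT3*, *WOX7*, *WOX11*, *WOX12*, *CKX1*, *CYP83A1*, *MYB34*, *CYP79B3*, *SOT17*, *SOT18* and *HSFB2A* were named after their values had been seen. So were *GLU2*, *NIA2*, *HSP17.6B*, *ARR3*, *ARR4*, *ARR8*, *ARR9* and *ARR15*. The same holds for *JAZ1*, *JAZ2*, *JAZ3*, *JAZ9*, *JAZ10*, *CYP83B1*, *CYP81F2* and *UGT74B1*. Coordinates and sequences are not given, as the genome in hand was Col and the files use L*er*.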

Additional observations from a re-analysis of the deposited data

Results flagged for a closer look

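For 4 of the named genes the 3 shoot and 3 callus libraries of WT lie in 1 order and those of *dme-2* in the opposite order, in TPM. The difference between the genotypes was not tested. The *dme-2* callus values below are TPM that the counts of the same libraries do not follow, and which of them is right was not tested. *ELIP1*, an early light-induced protein, averaged 7.62 TPM in *dme-2* shoots (6.91 to 8.38) and 12.21 to 23.04 TPM in *dme-2* calli, whereas WT shoots had 14.42 to 15.54 TPM and WT calli 3.79 to 10.17 TPM. *BGL2*, a beta-glucanase of the salicylate response, averaged 51.93 TPM in *dme-2* shoots and had 91.21 to 123.43 TPM in *dme-2* calli, while WT shoots had 28.88 to 32.44 TPM and WT calli 20.53 to 27.76 TPM. *RD29A* (*LTI78*), a dehydration gene, averaged 36.9 TPM in *dme-2* shoots and had 94.07 to 177.31 TPM in *dme-2* calli, and in WT 85.9 to 92.32 TPM in shoots and 66.74 to 74.17 TPM in calli. The floral organ gene *PI* averaged 62.49 TPM in *dme-2* shoots and had 15.18 to 18.16 TPM in *dme-2* calli, and in WT 1.57 to 2.33 TPM in shoots and 15.43 to 27.75 TPM in calli. In WT the edgeR fit called only *PI* among these.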

How the results depend on the processing

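The number of genes higher in WT shoots stayed within 1.5 times of 6291 under all alternatives (leaving out 1 library, 5966 to 6521), and the number of lower genes did so except with limma on log2(TPM + 1), which gave 3132 in place of 4834 (leaving out 1 library, 4827 to 5102). TPM and library size alone share a scale that shifts most values up, so that fewer genes pass below −1. The replicate numbers did not pair the libraries: deviations of same-numbered libraries correlated at −0.024, −0.027 and 0.012, and with the replicate block 6345 genes were higher and 4814 lower. *ELIP1*, not called from counts, had 1.04 with limma on log2(TPM + 0.1). *MT1C* was lower by counts and had 12.25 and 15.58 with limma on log2(TPM + 1) and log2(TPM + 0.1), and the cause was not tested. No other named gene changed its direction while called. With at least 10 counts in every library, genes absent from a stage cannot be tested. CPM, which are not scaled by length, were planned as another level for named genes and are not set against TPM here, since the units differ.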
